A study of Sus scrofa with 5 samples.

Results

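The human GIMAP family was followed in kidney core biopsies of a pig kidney transplanted into a human recipient. It was represented by the 7 genes GIMAP1, GIMAP2, GIMAP4, GIMAP5, GIMAP6, GIMAP7 and GIMAP8. The 7 genes were taken by symbol from the 59219 symbols of the human count table, and 2 further GIMAP symbols of that table, the readthrough GIMAP1-GIMAP5 and the pseudogene GIMAP3P, were listed at 0 in all 5 libraries. The members were chosen by their human-table counts in all 5 libraries, which were known when the family was picked. Those values are therefore a description, and no test is given for them.

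The 5 libraries were bulk RNA sequencing libraries depleted of ribosomal RNA, labelled as pig kidney. The 2 controls (0 h) are labelled as kidney that was not transplanted, and the graft was sampled once each at 12, 24 and 48 h. A label names dissociated kidney cells, while the protocol describes homogenized core biopsies. The labels name no genotype, age or treatment of the donor pig and no treatment of the recipient, and they do not say whether the controls came from separate animals. All 3 biopsies came from 1 case, so the spread between them includes change with time. Each library was counted over a pig genome (56129926 to 71108823 counts) and over the human genome (13385414 to 19735274 counts). A level, written CPM, is the human-table count of a gene per 1000000 pig-table counts of the same library, which sets human RNA against graft RNA.

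GIMAP proteins are GTPases named for their association with immunity, and they are best known from lymphocytes. In mice and humans, loss of GIMAP5 leads to a shortage of lymphocytes, and GIMAP1 and GIMAP6 are also needed for normal lymphocyte survival. The proteins sit on different internal membranes. GIMAP genes are transcribed in T, B and NK cells, and for several members also in monocytes and in the endothelium of blood vessels, so that their transcripts in a tissue do not name a cell type by themselves.

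Human GIMAP transcripts were all but absent from the controls and were counted in every biopsy. The 7 genes together had 5 counts in control replicate 1 and 0 in control replicate 2, against 3055 at 12 h, 2057 at 24 h and 4519 at 48 h. Their summed level was 0.0759 and 0 CPM in the controls and 48.3, 31.1 and 80.5 CPM in the biopsies (53.3 ± 25.1, SD, n = 3 biopsies). All 3 biopsies lay above both controls for each of the 7 genes. Over all biopsies and both controls, the ratio of the summed levels was 1423, with a 95% exact interval from 609 to 4382. All intervals here cover counting error only. They may be too narrow even for that, because the labels name no molecular identifiers and reads need not be separate molecules. Of the 18349 genes tested in the human table by edgeR (quasi-likelihood, Benjamini-Hochberg), 19.3% were higher in the xenograft than in the controls and 15.9% lower. All 7 members were among those higher, from which nothing is read, since these values chose them and a gene near 0 in the controls passes the filter on low counts only through the biopsies. Over 12, 24 and 48 h, 0.926% of the genes rose and 0.196% fell, and the fitted slopes of the members ran from log2 0.06 ± 0.27 (SE) per 24 h for GIMAP2 to 0.83 ± 0.20 for GIMAP4.

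**Figure D1:**
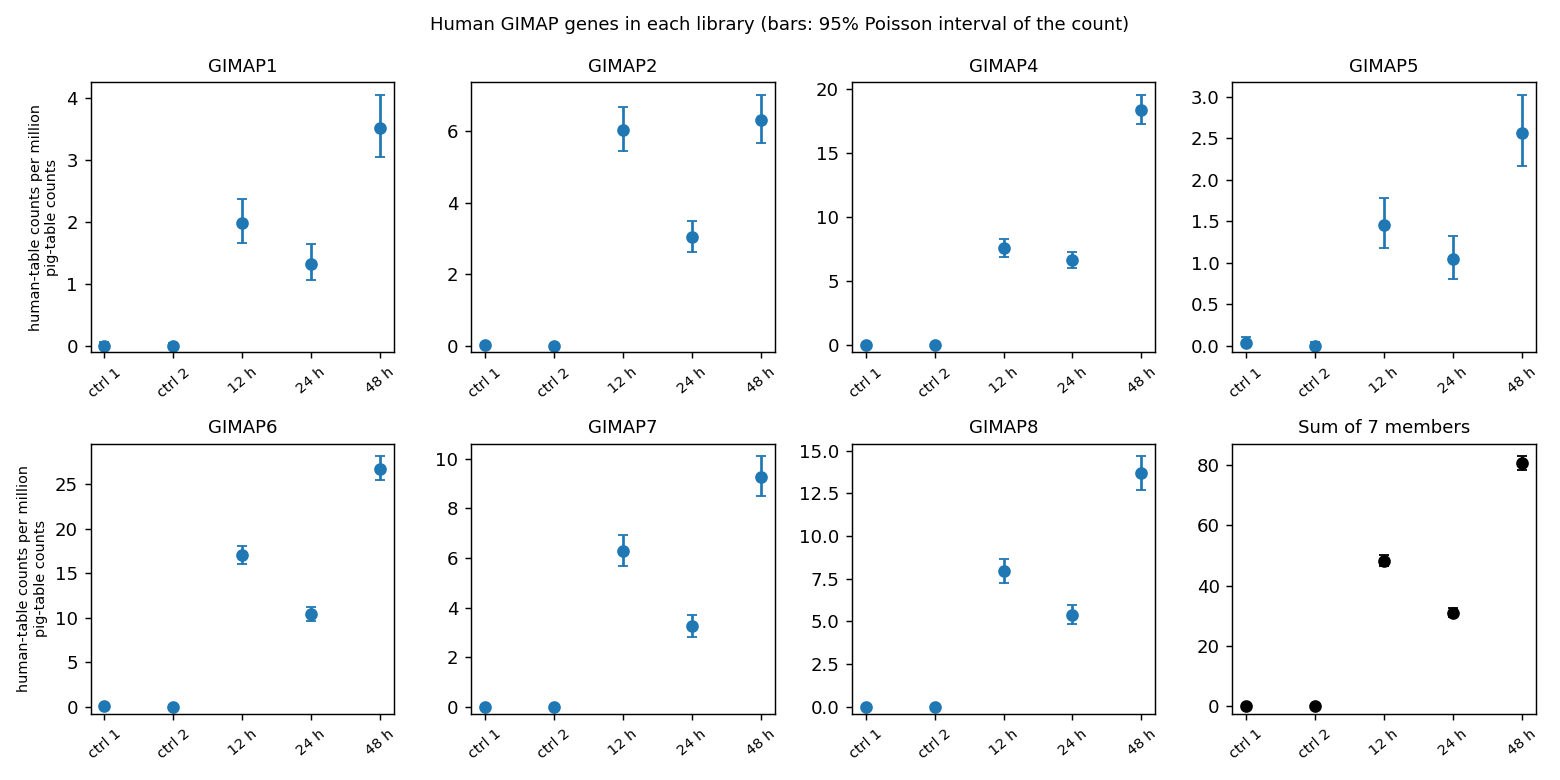
Level of each human GIMAP gene and of their sum in the 5 libraries, as human-table counts per 1000000 pig-table counts on linear axes that differ between panels. Points are single libraries and bars are 95% Poisson intervals of the count. Controls lie at or near 0, and for every gene the 24 h biopsy is the lowest of the 3 biopsies.

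GIMAP6, whose protein binds the autophagy protein GABARAPL2, had the most counts of the family in each biopsy, uncorrected for transcript length. The controls held 1 and 0 GIMAP6 counts, against 1075, 688 and 1501 at 12, 24 and 48 h, or 17.0, 10.4 and 26.7 CPM. The 3 counting intervals did not overlap, so that for GIMAP6 the order 48 h, 12 h, 24 h was wider than counting error. Its level over the biopsies was 18.0 ± 8.22 CPM (SD, n = 3) and stood 2411-fold above the controls, with an interval from 432 to 95243 that is wide because it rests on 1 control count.

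GIMAP4, a member linked to the death of T cells in rodents, was listed at 0 in both controls and at 481, 439 and 1034 counts in the biopsies. Its levels were 7.61, 6.63 and 18.4 CPM. The 12 h and 24 h values had overlapping counting intervals (6.94 to 8.32 and 6.03 to 7.29), and the 48 h value lay far above both. Its level over the biopsies was 10.9 ± 6.54 CPM (SD, n = 3). With 3 counts over both controls as the floor, this was at least 481-fold higher than in the controls.

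GIMAP8, the largest member, which carries several GTPase domains in one protein, had 1 and 0 control counts and 501, 357 and 767 biopsy counts (7.92, 5.40 and 13.7 CPM). GIMAP7, which can stimulate the GTPase activity of other members, had 0 control counts and 398, 215 and 520 biopsy counts (6.29, 3.25 and 9.26 CPM). Both followed the order 48 h, 12 h, 24 h with intervals that did not overlap. Over the biopsies GIMAP8 was at 8.99 ± 4.24 CPM and GIMAP7 at 6.27 ± 3.01 CPM (SD, n = 3), and GIMAP7 was at least 279-fold higher than in the controls.

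GIMAP2, a member found on lipid droplets, had 1 and 0 control counts and 382, 201 and 355 counts in the biopsies. Its level was 6.04 CPM at 12 h (95% Poisson interval 5.45 to 6.68), 3.04 at 24 h and 6.32 at 48 h (5.68 to 7.02). Its level over the biopsies was 5.13 ± 1.82 CPM (SD, n = 3). GIMAP2 was the only member of the 7 whose 12 h and 48 h biopsies could not be ordered beyond counting error.

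GIMAP1, a Golgi-associated member, and GIMAP5, a lysosomal member, had the fewest counts. GIMAP1 had 0 control counts and 126, 88 and 198 biopsy counts (1.99, 1.33 and 3.53 CPM). GIMAP5 had 2 and 0 control counts and 92, 69 and 144 biopsy counts (1.45, 1.04 and 2.57 CPM), and its 12 h and 24 h intervals overlapped. Over the biopsies the levels were 2.28 ± 1.13 CPM for GIMAP1 and 1.69 ± 0.788 CPM for GIMAP5 (SD, n = 3), and GIMAP1 was at least 101.4-fold higher than in the controls. Both are uncertain in level because the readthrough gene GIMAP1-GIMAP5 shares their exons and was listed at 0. How reads shared between the 3 genes were assigned is not given in the sources used here. Levels of different members are not compared with each other, since no transcript lengths of the human genes were used.

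The 7 genes did not change in the same proportion from biopsy to biopsy. From 12 h to 24 h the level of GIMAP2 was 0.503 times its 12 h value (95% exact interval 0.422 to 0.598) and that of GIMAP7 0.516 times (0.435 to 0.611), whereas GIMAP4 was at 0.872 times (0.765 to 0.995). The interval of this ratio ends just below 1, although the intervals of the GIMAP4 levels overlap. From 24 h to 48 h the ratios were closer together, from 2.08 for GIMAP2 (1.75 to 2.49) to 2.85 for GIMAP7 (2.43 to 3.36). Over the whole span from 12 h to 48 h, GIMAP4 was at 2.42 times its 12 h level (2.17 to 2.70) and GIMAP2 at 1.05 times (0.904 to 1.21), with the other 5 members between 1.47 and 1.77. These intervals cover counting error within 1 biopsy a time and say nothing of the spread between biopsies of the same time.

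The same difference appeared in the make-up of the GIMAP counts. GIMAP4 took 15.7% of the summed GIMAP counts at 12 h (95% Wilson interval 14.5 to 17.1), 21.3% at 24 h (19.6 to 23.2) and 22.9% at 48 h (21.7 to 24.1). GIMAP2 took 12.5% (11.4 to 13.7), 9.77% (8.56 to 11.1) and 7.86% (7.11 to 8.68). The intervals of the 12 h and 48 h shares did not overlap for either gene. The share of GIMAP6 was 35.2%, 33.4% and 33.2%, that of GIMAP8 16.4%, 17.4% and 17.0%, and that of GIMAP7 13.0%, 10.5% and 11.5%. GIMAP1 stayed between 4.12% and 4.38% and GIMAP5 between 3.01% and 3.35%.

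**Figure D2:**
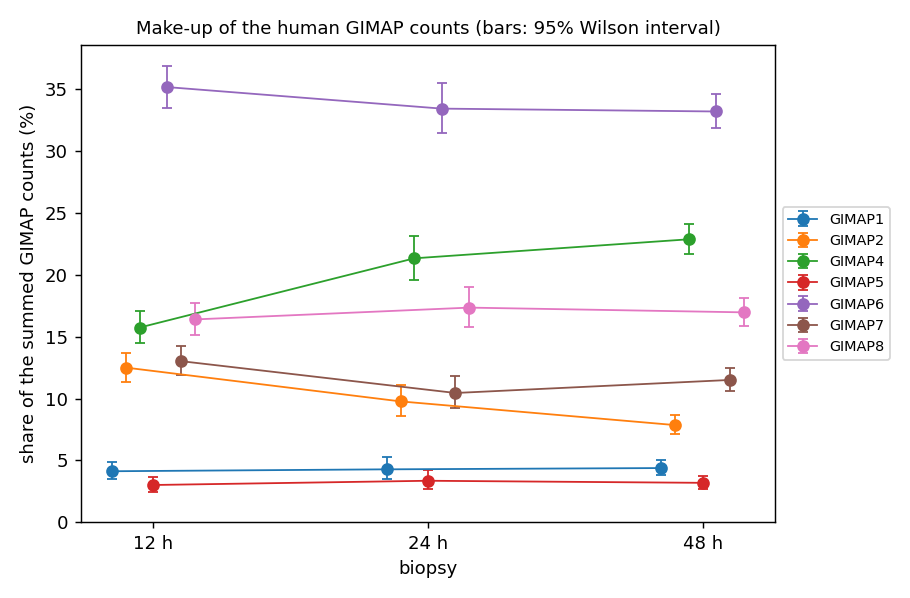
Share of each gene in the summed counts of the 7 human GIMAP genes (vertical axis, percent) in the 12, 24 and 48 h biopsies (horizontal axis). Bars are 95% Wilson intervals and lines join the points of 1 gene. GIMAP4 goes from 15.7% at 12 h to 22.9% at 48 h and GIMAP2 from 12.5% to 7.86%, while the intervals of GIMAP1, GIMAP5, GIMAP6 and GIMAP8 overlap between biopsies.

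By shape over the 3 biopsies, GIMAP1, GIMAP5 and GIMAP8 lay closest together. Shape was measured as the root mean square difference between the log2 levels of 2 genes, each centred on its own mean over 12, 24 and 48 h. The difference was 0.0273 between GIMAP1 and GIMAP8 and 0.0302 between GIMAP5 and GIMAP8, against 0.502 between GIMAP2 and GIMAP4, the pair farthest apart.

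How far this course was the family's own was looked at in all human-table genes with the same kind of signal. These were 412 genes with at least 50 counts in every biopsy and a highest control level under 10% of the lowest biopsy level, and all 7 members were among them. Of the 412 genes, 379 (92.0%) were lower at 24 h than at 12 h and higher at 48 h than at 24 h, as were all 7 members. The median ratio over the 412 genes was 0.672 from 12 h to 24 h and 2.35 from 24 h to 48 h, beside 0.643 (0.608 to 0.681) and 2.59 (2.46 to 2.73) for the summed GIMAP counts. The summed counts of the 412 genes were 5042, 3633 and 7623 CPM in the biopsies and 118 and 97.2 CPM in the controls. The lower level at 24 h and the higher one at 48 h were thus found in most genes of this kind. In bulk tissue, fewer human cells of a type and less RNA per cell cannot be told apart.

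Set against the 412 genes instead of the pig-table total, the GIMAP sum was at 9581, 8557 and 10562 per 1000000 of their counts at 12, 24 and 48 h. On this scale the 24 h value was 0.893 times the 12 h value and the 48 h value 1.23 times the 24 h value. GIMAP4 was at 1509, 1826 and 2417 per 1000000 of these counts, without a dip, and GIMAP2 at 1198, 836 and 830 per 1000000, without a higher level at 48 h than at 24 h.

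**Figure D3:**
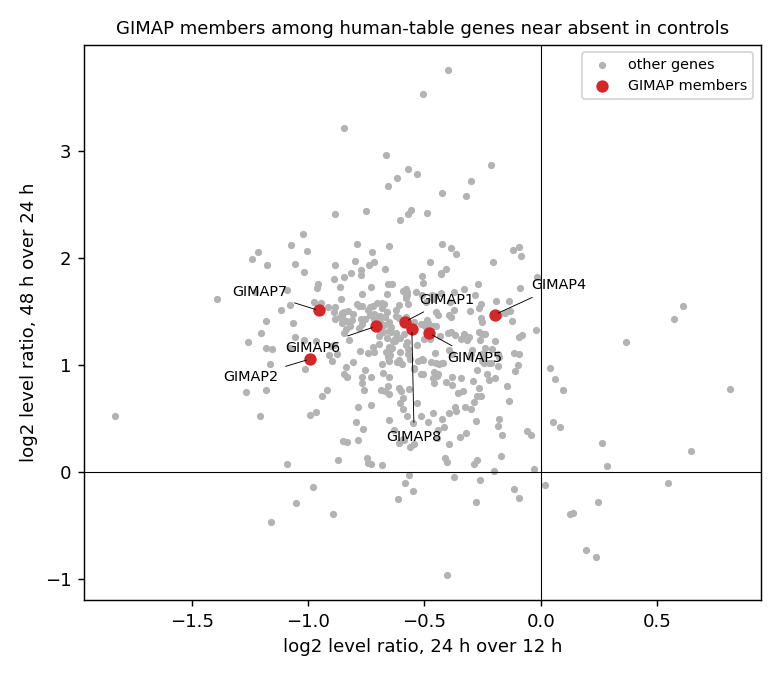
Log2 ratio of levels from 12 h to 24 h (horizontal axis) and from 24 h to 48 h (vertical axis) for 412 human-table genes with at least 50 counts in every biopsy and little in the controls. Grey points are other genes and red points the 7 GIMAP genes, all of which lie below 0 on the horizontal and above 0 on the vertical axis, as do 92.0% of the 412 genes.

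The genes nearest in shape to the GIMAP sum among these were OAS1 (root mean square difference 0.00856), LILRB4 (0.0129), PARP14 (0.0177), CLEC7A (0.0217) and TRIM14 (0.0278). This likeness rests on 3 biopsies. OAS1, which encodes an interferon-induced sensor of double-stranded RNA, had 369, 247 and 538 counts in the biopsies against 13 and 6 in the controls. LILRB4, an inhibitory receptor gene of myeloid cells, had 159, 106 and 238 counts against 0 and 0, and CLEC7A, the receptor gene for fungal beta-glucan on myeloid cells, had 339, 220 and 493 against 2 and 0. PARP14, an ADP-ribosyltransferase gene, had 665, 436 and 959 counts against 16 and 14, and TRIM14 216, 140 and 306 against 3 and 1. Of the members themselves, GIMAP8 ranked 10, GIMAP1 13, GIMAP6 16 and GIMAP5 35 of 412 by this measure. GIMAP7 ranked 105, GIMAP4 223 and GIMAP2 256. Each member is part of the sum it is compared with, which the other genes are not, so these ranks do not measure likeness to the rest of the family.

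To set the GIMAP counts beside cell types, marker lists were summed in the human table. A list gene near 0 in the controls passes the filter on low counts only through the biopsies. As for the members, nothing is read from the call of such a gene as higher, here or in the lists below. With pig-table totals as library sizes the median log2 fold change of all genes was 0.84, beside 0.05 in the main fit. Counts of list genes that rose with those library sizes, here or below, are therefore not read as a result about the lists. Part of a list sum can be pig reads. In the controls, which the labels give as pig kidney, the human-table count of a gene divided by its pig-table count gives the rate at which pig reads were counted as human. That rate times the pig-table count in a biopsy is called the predicted count below. It may be too high, because the pig-table count of a biopsy may hold human reads. The T cell list of 20 genes had a summed level of 1.28 to 1.97 CPM in the controls and 3.80, 3.63 and 10.9 CPM in the biopsies. CD3D was at 0 in the controls and at 3, 3 and 8 counts in the biopsies. CD3E had 4 and 2 control counts and 16, 11 and 46 biopsy counts, and CD2, an adhesion receptor of T and NK cells, had 1 and 0 against 29, 22 and 75. Of the 20 genes, 10 could be tested and 4 rose in the xenograft (CD2, CD247, CD3E and CD8A) and 0 fell, with a median log2 fold change of 1.88 over the tested members beside 0.05 over all genes. CD247, the zeta chain gene of the T cell receptor complex, had 1 and 1 control counts and 46, 49 and 110 biopsy counts. The log2 fold changes of CD247 and CD2 were 5.33 ± 0.76 and 5.52 ± 1.06 (SE, edgeR) and rest on at most 1 count in each control. No p-value is given for these 2 genes, since both passed the filter only through the biopsies. With control replicate 1 left out 2 T cell genes rose, with control replicate 2 left out 1, with the 12, 24 or 48 h biopsy left out 2, 6 and 2, and with pig-table totals as library sizes 7.

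NK and cytotoxic genes had a summed level of 0.619 to 1.77 CPM in the controls and 18.7, 15.1 and 41.0 CPM in the biopsies. Of 13 genes, 10 were tested and 9 rose, among them PRF1, encoding perforin, with 201, 189 and 449 biopsy counts against 1 and 0, and GNLY, encoding granulysin, with 179, 172 and 389 against 0 and 0. CD247 and CD2 of the T cell list are also transcribed in NK cells. The sum of the B and plasma cell genes was close to the control level, at 2.32 to 4.67 CPM in the controls and 5.38 to 5.83 in the biopsies. Most counts of that sum came from 1 gene, JCHAIN, so the sum says little of the others. Of 13 genes, 3 were tested and 1 rose, CD79B, with 21, 22 and 45 biopsy counts against 0 and 0. Its partner CD79A had 3, 1 and 3 biopsy counts. The B cell gene MS4A1 had at most 6 counts in any biopsy, and VPREB3 was at 0 in all of them. JCHAIN, the antibody joining chain gene, gave 288, 324 and 191 of the 340, 386 and 314 list counts in the biopsies. Its predicted counts were 260, 302 and 129. Of 5 B and plasma cell genes with a prediction above 0, 0 were over 2 times it in every biopsy. A further 6 genes, CD79B among them, were at 0 in the human-table controls, so no such ratio could be formed for them.

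A list of 12 genes of lymphocyte quiescence and homing, which resting lymphocytes express, went both ways. Of its 10 tested genes, 3 rose in the human table, S1PR1 and TXK among them, and 1 fell (BCL2), with a median log2 fold change of 0.35. With either control or the 12 h biopsy left out 2 rose and 0 fell, and under pig-table library sizes 6 rose and 0 fell. S1PR1 encodes the receptor by which lymphocytes leave lymphoid tissue and is also transcribed in endothelium. Its 1310, 935 and 794 human-table counts were 1.03 to 1.10 times the predicted ones, and 2 of the 11 list genes with a prediction were over 2 times it in every biopsy. IL7R, the receptor gene for the survival cytokine of resting T cells, had 9, 1 and 56 biopsy counts against 2 and 2.

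Myeloid genes of the human table were high in every biopsy. Monocyte and macrophage genes were at 22.0 to 26.4 CPM in the controls and 515, 416 and 753 CPM in the biopsies, and 12 of 13 tested genes rose. LYZ, encoding lysozyme, had 10253, 7356 and 12240 biopsy counts against 1 and 4, and CD163, the haemoglobin scavenger receptor gene, 9550, 9704 and 10486 against 202 and 180. The predicted counts of CD163 were 3276, 4406 and 4104, and all 8 list genes with a prediction were over 2 times it in every biopsy. Neutrophil genes were at 0.323 to 0.667 CPM in the controls and 234, 139 and 181 CPM in the biopsies, and 13 of 13 tested genes rose. S100A9 and S100A8, encoding the subunits of calprotectin, had 7389, 4550 and 5107 and 4287, 2486 and 2586 biopsy counts. Platelet genes were at most at 5.36 CPM, in the 12 h biopsy, and 4 of 5 tested genes rose (2 with either control, the 12 h or the 24 h biopsy left out). PPBP and PF4, both platelet chemokine genes, had 129, 116 and 49 and 45, 29 and 9 biopsy counts, lowest at 48 h. Of the red cell list, HBB had 4964, 3098 and 2881 biopsy counts against 26 and 16, and HBA2 130, 102 and 116 against 1 and 2.

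**Figure D4:**
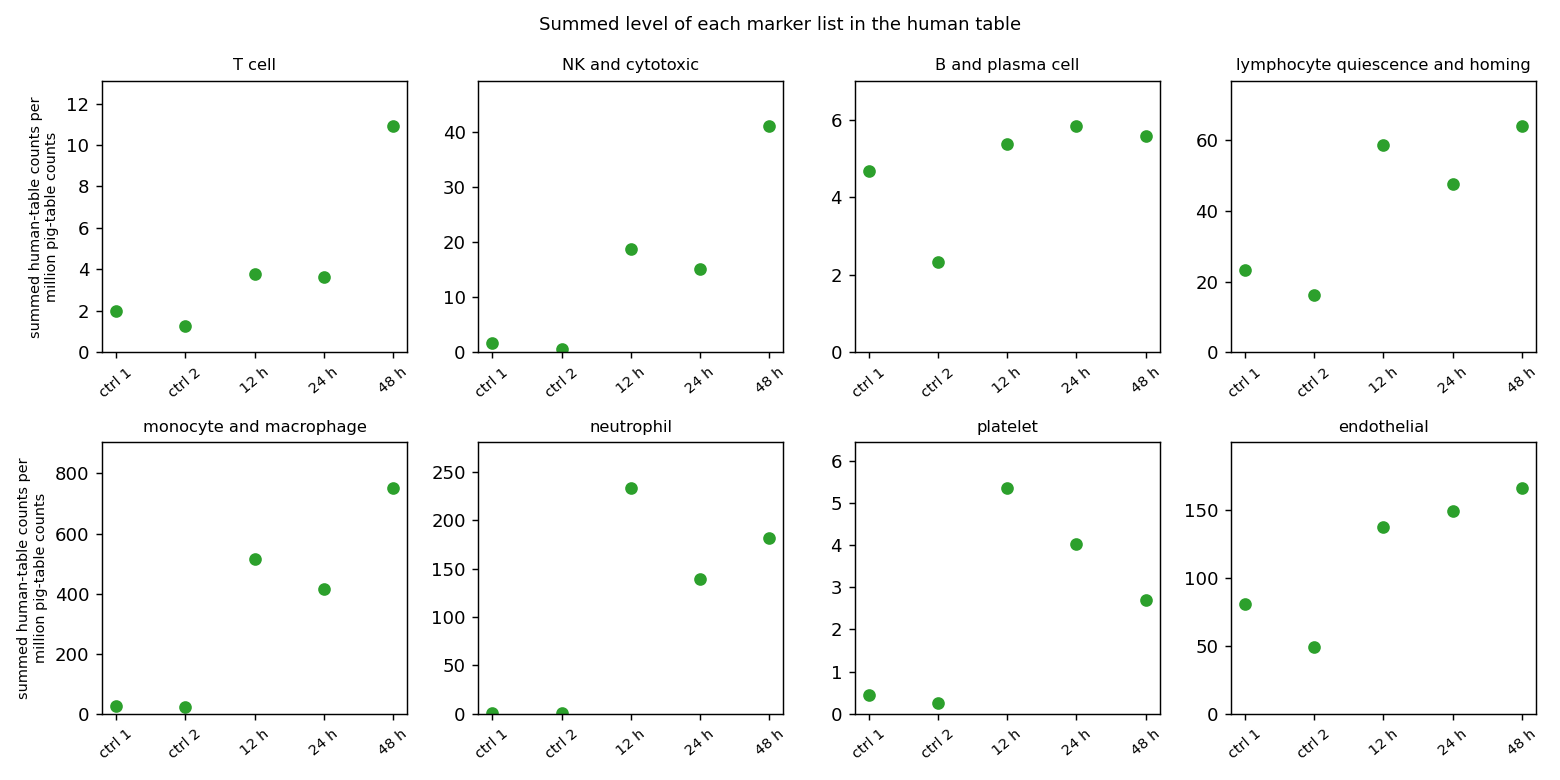
Summed level of 8 marker lists in the human table (vertical axes, counts per 1000000 pig-table counts, each starting at 0) in the 2 controls and the 12, 24 and 48 h biopsies. Points are single libraries. The T cell and NK lists are highest at 48 h, the neutrophil and platelet lists at 12 h, and the B and plasma cell list is at most 5.83 CPM against up to 4.67 in the controls.

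The GIMAP sum was set against the T cell, NK, monocyte and neutrophil lists as GIMAP counts per 100 list counts, after the control level was taken off. Among these 4 lists the ratio moved least from 12 h to 48 h for the monocyte and macrophage list. There were 9.83, 7.93 and 11.0 GIMAP counts per 100 counts of that list at 12, 24 and 48 h, so that the 48 h ratio was 1.12 times the 12 h ratio. With CD163 left out of the list the ratio was 14.1, 12.5 and 14.8 per 100, or 1.05 times. Against the neutrophil list the ratio was 20.7, 22.3 and 44.5 per 100, or 2.15 times the 12 h ratio at 48 h. Against the NK and cytotoxic list it was 276, 223 and 202 per 100, or 0.733 times, and against the T cell list 2225, 1552 and 867 per 100, or 0.390 times. The T cell list had only 240, 240 and 612 counts in the biopsies before background was taken off. Of its 11 genes with a prediction above 0, 5 were over 2 times it in every biopsy, so part of this small sum can be pig reads. The monocyte list moved least between these end points only. From 12 h to 24 h the ratio moved least for the neutrophil list, and from 24 h to 48 h for the NK list. With the predicted pig reads taken off the list genes, the 48 h ratio was 1.13, 2.15, 0.779 and 0.447 times the 12 h ratio for the monocyte, neutrophil, NK and T cell lists. The last 2 settings were chosen after seeing the data. No ratio is read for the endothelial, quiescence and B cell lists, whose human-table counts lie mostly near the predicted ones. Against the platelet list, which is not among the 4, the ratio was 963, 842 and 3408 per 100, or 3.54 times the 12 h ratio at 48 h. These ratios are read across biopsies only, because the lists differ in gene number and length. The lists share their libraries and were not tested against each other, and which cells the GIMAP transcripts came from was not tested.

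Endothelium, the other tissue known to transcribe several GIMAP genes, gave human-table counts close to those its pig transcripts would give. For 11 of the 12 endothelial genes, PECAM1 excepted, the human-table count in a biopsy was 0.911 to 1.42 times the predicted one. KDR, a VEGF receptor gene, had 2228, 2227 and 1919 counts against 2062, 2072 and 1765 predicted. PECAM1, which platelets and leukocytes also transcribe, had 1281, 1143 and 1377 counts against 594, 664 and 584 predicted. Of 12 endothelial genes 4 rose in the human table and 0 fell. With control replicate 1 or 2 left out 3 and 1 rose, and with pig-table library sizes 8. Of the same 12 genes, 6 rose in the pig table (3 and 2 with control replicate 1 or 2 left out).

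The same rate could be taken for the 3 GIMAP genes that the pig table holds. Pig GIMAP4 gave 1920 pig-table counts over both controls and 0 human-table counts, which allows a rate of up to 0.156 per 100. Pig GIMAP8 gave 340 pig-table counts and 1 human-table count, so that 0.691, 0.591 and 0.847 counts were predicted in the biopsies, where 501, 357 and 767 were counted. Pig GIMAP2 gave only 12 pig-table counts and 1 human-table count in the controls, too few to fix a rate, and its predicted counts were at most 2.75 in a biopsy, where at least 201 were counted.

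The graft's own GIMAP genes were tested in the pig table, which had no part in the choice of the members. It holds 3 GIMAP symbols, GIMAP2, GIMAP4 and GIMAP8, where the RefSeq annotation of Sscrofa11.1 lists 7 in 1 cluster in the order GIMAP5, GIMAP1, GIMAP2, GIMAP6, GIMAP4, GIMAP7 and GIMAP8. Of the 12620 pig genes tested by edgeR, 18.5% were higher in the xenograft and 19% lower (37.5% in all). Over 12, 24 and 48 h, 3.34% rose and 0.983% fell (4.33% in all).

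Pig-table GIMAP4 rose within the graft. It had 1089 and 831 counts in the controls and 1117, 1608 and 3133 at 12, 24 and 48 h, or 16.5, 11.7, 17.7, 24.3 and 55.8 CPM of pig-table counts. The 12 h biopsy lay close to control replicate 1, and the 48 h biopsy was the highest of the 5 libraries. The rise over 12, 24 and 48 h was 2.09-fold per 24 h (log2 1.07 ± 0.12, SE, edgeR quasi-likelihood, adjusted p = 0.00275), higher at each later biopsy. Without the 48 h biopsy it was log2 1.04 and did not pass (adjusted p = 0.0758). The xenograft as a whole against the controls did not pass (log2 0.71 ± 0.46, adjusted p = 0.262). Human GIMAP4 at 24 h was at 0.872 times its 12 h level, while pig GIMAP4 was higher at 24 h than at 12 h.

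Human reads could in turn be counted as pig, and no library of human tissue alone was at hand to measure this. If every human-table GIMAP4 read were also in the pig table, 636, 1169 and 2099 counts would be left to the pig gene in the biopsies, or 10.1, 17.7 and 37.4 CPM. These are not lower bounds, because human reads counted only in the pig table, of GIMAP4 or of another member, are not taken off. The slope with the counts so left was log2 1.18 per 24 h (edgeR adjusted p = 0.00412), a fit chosen after seeing the data. In the RefSeq annotation pig GIMAP4 overlaps GIMAP7, which is not a symbol of the pig table, so the counts listed as GIMAP4 may hold reads of GIMAP7.

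Pig GIMAP2 was counted at 8 and 4 in the controls, against 23, 21 and 33 in the graft. It rose 3.39-fold in the xenograft (log2 1.76 ± 0.53, adjusted p = 0.0368), all 3 biopsies above both controls, but lost the call with control replicate 1 left out (adjusted p = 0.123), control replicate 2 (0.247), the 24 h biopsy (0.0512) or the 48 h biopsy (0.0603), and by DESeq2 (0.0767). At most 33 of its pig-table counts stand beside 201 to 382 human-table counts of GIMAP2 in the biopsies, and a human share of these pig-table counts was not tested. Pig GIMAP8 had 182 and 158 control counts and 235, 201 and 288 biopsy counts and did not pass in either comparison (log2 0.17 ± 0.28, adjusted p = 0.646, and 0.32 ± 0.21 per 24 h, adjusted p = 0.455).

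**Figure D5:**
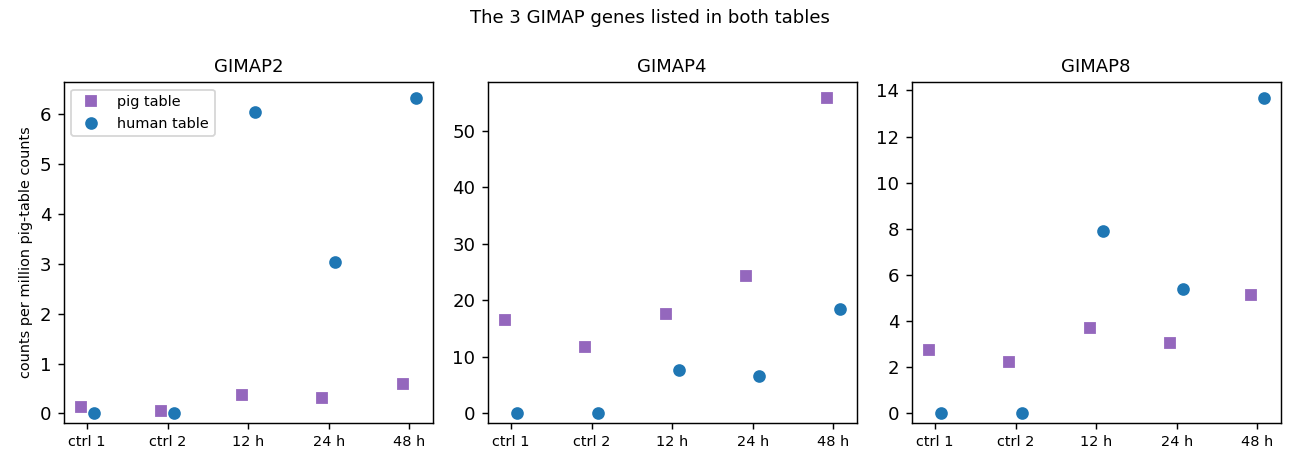
Levels of GIMAP2, GIMAP4 and GIMAP8 in the pig table (purple squares) and the human table (blue circles), both as counts per 1000000 pig-table counts, in the 5 libraries. Human-table values are at or near 0 in both controls, where pig GIMAP4 is at 16.5 and 11.7 CPM, and pig GIMAP4 is highest at 48 h with 55.8 CPM.

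Pig T cell genes were lower in the xenograft. Of 14 tested pig T cell genes, 10 fell in the xenograft and 0 rose, with a median log2 fold change of -1.29 beside 0.03 over all pig genes. Pig CD2 had 348 and 254 control counts and 160, 173 and 131 biopsy counts (log2 -1.29 ± 0.24, adjusted p = 0.00676). This call of the list rests on both controls and partly on 1 biopsy: 1 gene fell with control replicate 1 left out, 5 with the 24 h biopsy left out, and no call was left with control replicate 2 left out. DESeq2 gave 10 with all 5 libraries. Of 7 tested pig NK and cytotoxic genes 4 fell and 1 rose (median log2 -1.45), with 1 fall left when either control was left out. Of 9 tested pig monocyte and macrophage genes 7 rose and 0 fell (median log2 2.39). Human reads may add to these pig-table counts, and a human share was not tested. The human-table counts of the 7 genes in the biopsies ran from 4, 3 and 9 for CD68 to 9550, 9704 and 10486 for CD163.

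Autophagy genes were looked at because GIMAP6 binds GABARAPL2. Of 12 such genes in the human table, all tested, 2 rose in the xenograft, ATG12 and MAP1LC3B, with a median log2 fold change of 0.10 over the list. Their human-table counts were 2.99 to 7.33 times the predicted ones in the biopsies. GABARAP and GABARAPL1 fell, but 0 genes of the list fell with either control left out, and 9 rose and 0 fell (median log2 0.89) with pig-table library sizes. Over all genes the median with those library sizes was log2 0.84. GABARAPL2 had 4414, 5159 and 4678 human-table counts where 4138, 4909 and 4232 were predicted, and GABARAPL1 was at 1.21 to 1.33 times its predicted counts. Of the 11 list genes with a prediction, 2 were over 2 times it in every biopsy.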

How the data were processed

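RNA sequencing of 5 kidney libraries was analysed, 2 controls and 3 xenograft biopsies. The authors deposited whole-number counts for each gene symbol, in a pig and a human table, with no normalization visible in them. The submitters' processing notes name hg38. Aligner, counter, strandedness and competition between the genomes are not given in the sources used here, so a read that fits both genomes may count in either table or in both. XIST, TSIX and Y-linked symbols (166) were removed from the human table.

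CPM are human-table counts per 1000000 pig-table counts. Tests used edgeR 4.0.16 in R 4.3.3 with TMM scaling, filterByExpr (minimum count 10, minimum total 15), the robust quasi-likelihood test and Benjamini-Hochberg adjustment over all genes at 0.05. The xenograft was set against the controls with 3 residual degrees of freedom, and a slope per 24 h was fitted within the biopsies with 2. An SE is the log2 fold change over the square root of its F. The labels name no separate animals, so p-values reflect only differences among these libraries, which may be technical. DESeq2 1.42.0, other scalings, no filter and leaving out each library were alternatives. The code was tested on simulated data. Intervals are 95% (exact Poisson or binomial, or Wilson for shares), and the floor for a count of 0 is 3 counts over both controls.

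The members and marker lists were chosen with earlier results of these data known. Named list genes were the 2 of highest biopsy level per list among those whose highest control level is under 10% of the lowest biopsy level. Other list genes named were chosen after their values were seen. Single values of some list genes are not reported here. The 5 genes nearest in shape to the GIMAP sum were named. No sequences or human coordinates were used here.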

Additional observations from a re-analysis of the deposited data

How the results depend on the processing

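The log2 ratio of the GIMAP sum was -0.64 from 12 h to 24 h and 1.37 from 24 h to 48 h. Scaled to the human-table total it was -0.53 and 1.17, with TMM -0.49 and 1.12, and scaled to the counts of the 412 genes -0.16 and 0.30. That last scale was chosen after seeing the data. On it GIMAP2 was at -0.011 from 24 h to 48 h and GIMAP4 at 0.28 from 12 h to 24 h, both of opposite sign to the main scale. The mean GIMAP level was 39.7 to 64.4 CPM when 1 biopsy was left out, against 53.3.

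The log2 change of the GIMAP ratio to the T cell list from 12 h to 48 h was -0.79 with no background taken off and -1.59 with the best counted list gene left out, against -1.36. For monocytes and macrophages it was 0.24 without GIMAP2, 0.040 without GIMAP4 and 0.070 with CD163 left out of the list, against 0.17. For neutrophils it was 0.98 without GIMAP4. For B and plasma cells, whose ratio is not read, it was -1.09 with the best counted list gene left out, against 0.58.

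In the human table, 3544 genes were higher and 2914 lower in the xenograft. The counts were 1856 and 1625 with control replicate 1 left out, 1550 and 1316 with control replicate 2 left out, and 10026 and 741 with pig-table library sizes, which moved the median of all genes from log2 0.05 to 0.84. The list counts given above under pig-table library sizes stand beside these 10026 of all genes. The human-table slope gave 170 higher and 36 lower genes. These became 40 and 2 with control replicate 1 left out, 38 and 2 with control replicate 2, 704 and 224 with the 12 h biopsy, 723 and 248 with the 24 h biopsy, and 276 and 88 with the 48 h biopsy. They were 598 and 190 with no filter, with 363 higher under pig-table library sizes and 78 lower by DESeq2.

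In the pig table, 2332 genes were higher and 2402 lower in the xenograft, 738 and 1056 with control replicate 1 left out and 464 and 727 with control replicate 2 left out. The pig slope gave 422 higher and 124 lower, 662 and 337 with the 12 h biopsy left out, 1728 and 1037 with the 24 h biopsy, and 941 and 585 with the 48 h biopsy, and 265 lower by DESeq2. With the 48 h biopsy left out pig GIMAP8 was at log2 -0.017 in the xenograft and -0.46 per 24 h, and pig GIMAP2 at -0.27 per 24 h. A control left alone is assumed to vary like the biopsies. The cause of these changes was not tested. No paired analysis was possible because the labels pair no biopsy with a control. The low counts of GIMAP1 and GIMAP5 limit the precision of their ratios.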
